A study of Oryza sativa with 8 samples.

Results

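Aquaporins are channel proteins that let water, and in some classes small neutral solutes, cross membranes. The probes described here are those of the NIAS rice 22K oligonucleotide array whose gene carries a symbol or synonym of the form PIP, TIP, NIP or SIP followed by numbers in the rice RefSeq annotation, a choice that uses names and no measured value. The rule found 30 probes among 22575 features on the array. All 30 had a value on every array and entered the test, which ran over 17782 probes. Of the 30, 28 are listed with 1 gene and cover 23 of the 15636 genes that have a probe of their own in the test, while probe 13091 is listed with both PIP2-1 and PIP2-5, and probe 1488 with TIP3-1 and a gene outside the family. By class there are 13 PIP, 8 TIP, 6 NIP and 3 SIP probes. The annotation names 29 such genes, and the others (PIP2-3, TIP3-1, TIP5-1, NIP1-2, NIP3-1 and NIP3-3) have no probe of their own here and are not analysed.

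The tissue was callus, an unorganised cell mass, grown from the scutellum (the embryo's absorbing leaf) of the japonica rice variety Nipponbare. All calli were kept for 30 d on Murashige and Skoog medium with 10 µM of the synthetic auxin 2,4-D. Treated calli then spent 3 d on medium with 50 µM of abscisic acid (ABA, the hormone of drought and seed dormancy) or with 50 µM of gibberellin (GA, the hormone of germination and stem growth), and the controls were untreated calli. The labels do not name the form of GA, or say whether 2,4-D was in the second medium. Each of 8 arrays held treated and untreated callus in different dyes. The treated callus was in Cy3 on ABA arrays 24 and 20 and in Cy5 on ABA arrays 19 and 23, and for GA it was in Cy3 on arrays 04 and 05 and in Cy5 on arrays 07 and 08. Whether each array had its own culture, or an untreated sample served several, is not stated, so the p-values below reflect the scatter of these arrays alone, and that scatter may be technical. A ratio gives no level, so neither the abundance of a gene nor the identity of the tissue could be checked from these values. In a bulk ratio of this kind, a change in the share of cells that use a gene and a change in its RNA per cell cannot be told apart.

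Plants carry aquaporins as a large family. The plasma membrane intrinsic proteins (PIPs) sit in the plasma membrane and fall into a PIP1 and a PIP2 group, of which PIP2 proteins are generally efficient water channels and PIP1 proteins often need a PIP2 partner to reach the membrane, as shown in maize. Tonoplast intrinsic proteins (TIPs) lie in the vacuole membrane, where they let the vacuole take up or release water. The TIP3 group is known from the storage vacuoles of seeds. NOD26-like intrinsic proteins (NIPs) pass solutes such as silicic acid, boric acid or arsenite, and the small basic intrinsic proteins (SIPs) were located to the endoplasmic reticulum in Arabidopsis.

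Values are log2 of treated over untreated callus, so 0 is no change, with the mean ± SD over n = 4 arrays. A probe is called when its adjusted p from limma (a linear model with a dye term, fitted over all 17782 probes with Benjamini-Hochberg adjustment) is under 0.05. As deposited, arrays of opposite dye orientation ran opposite ways over these probes (r = −0.61 to −0.51 for ABA and −0.82 to −0.70 for GA), so the table was read as a fixed Cy5 over Cy3 ratio and arrays with the treated callus in Cy3 were turned. Once turned, PM1 and EM, ABA-responsive genes of seed maturation, stood at 3.73 and 1.25 under ABA and at −2.83 and −2.83 under GA. GA20OX3, a gibberellin synthesis gene of a family known to be repressed by GA, stood at −0.08 under ABA and −1.03 under GA. ABA and GA arrays of the same dye orientation correlated at −0.28 to −0.02. The direction is likely for ABA; for GA its basis is the labelled dyes, and were the GA arrays to run the other way every GA sign below would turn. The log base is also not stated and was taken as 10, the convention of this array's software, which scales the fold changes and leaves the calls as they are.

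Under ABA, aquaporins moved little. Of the 30 probes 12 were called higher and 2 lower, against 18.0 and 23.7 percent of all probes tested, and no mean exceeded 0.29 (TIP2-1 and TIP2-2). Under GA, 15 were called higher and 5 lower, against 26.2 and 22.8 percent of all probes, and the rises were larger and mostly in the plasma membrane class: 9 of 13 PIP probes rose, by 0.23 to 0.85. Whether a PIP probe also reads transcripts of related PIP genes was not tested, since no probe sequences were at hand. The PIP counts and class medians are thus of probes, which may not be separate transcripts. In TIPs 4 of 8 probes rose under GA, TIP2-1 alone by over 0.5. NIPs had 3 of 6 called higher under ABA, against 0 higher (1 at an unadjusted p under 0.05 in limma) and 1 lower under GA, and of 3 SIP probes 2 fell under ABA and 2 rose under GA. A rise of at least 0.5 that passed the test was found for 0 aquaporin probes under ABA, against 2.11 percent of all probes, and for 6 under GA, against 5.12 percent. Of the 12 probes called higher under ABA, 8 were above 0 on all 4 arrays, against 2547 of 3209 called higher over all probes. Under GA it was 15 of 15, against 4071 of 4660. Of those called lower, 2 of 2 were below 0 on all 4 ABA arrays, against 3525 of 4221. On the GA arrays it was 4 of 5, against 3512 of 4055. Rises so placed were 14.3 percent (ABA) and 22.9 percent (GA) of all probes tested. Falls so placed were 19.8 percent under either hormone.

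**Figure D1:**
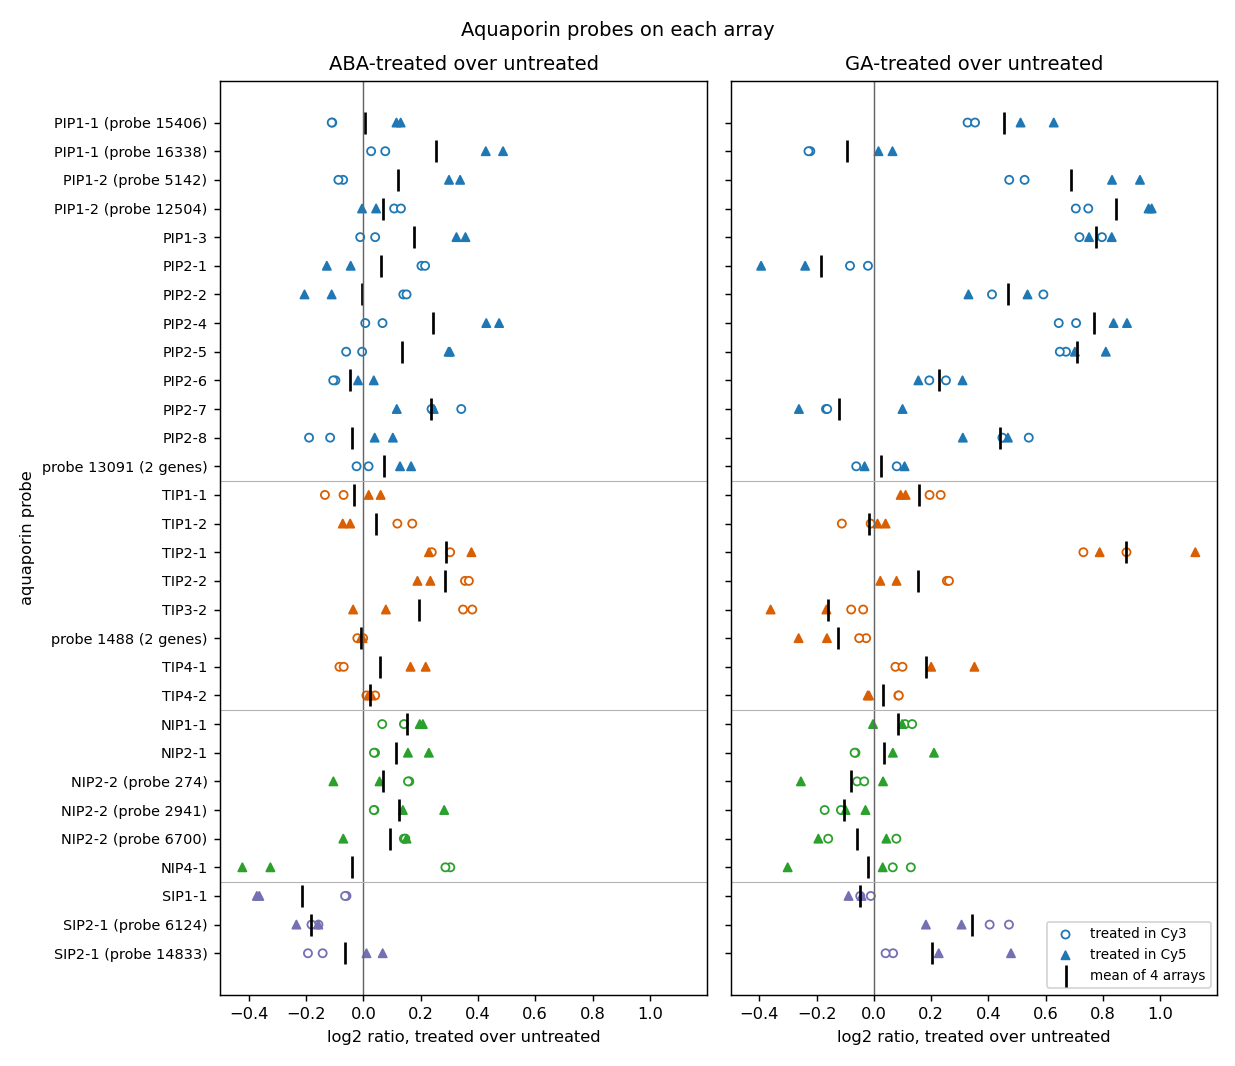
Log2 ratio of treated over untreated callus (horizontal axis) for each of 30 aquaporin probes on each of 4 ABA arrays (left) and 4 GA arrays (right); open circles are arrays with the treated callus in Cy3, filled triangles in Cy5, the bar is the mean, and colours separate PIP, TIP, NIP and SIP from top to bottom. Under GA 15 probes (9 PIP, 4 TIP and 2 SIP) lie above 0 on all 4 arrays, up to 1.12 for TIP2-1, while under ABA many probes straddle 0 by dye orientation.

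In the PIP1 group 4 of 5 probes rose under GA and 1, a probe of PIP1-1, was called lower. PIP1-2 has 2 probes. On probe 12504 it stood at 0.11 and 0.13 on ABA arrays 24 and 20 and at 0.04 and −0.0045 on arrays 19 and 23, and at 0.75, 0.70, 0.96 and 0.97 on GA arrays 04, 05, 07 and 08. The GA mean was 0.85 ± 0.14, or 1.80-fold (adjusted p = 7.34e-07), and the ABA mean of 0.07 ± 0.06 did not pass (adjusted p = 0.284, 95% interval −0.04 to 0.18). That ABA mean did pass with a dye term for each hormone (adjusted p = 0.0323) and with each hormone fitted on its own arrays (adjusted p = 0.0325). The other probe, 5142, gave −0.07, −0.09, 0.30 and 0.34 on the ABA arrays and 0.53, 0.47, 0.83 and 0.93 on the GA arrays, in the same array order. Both probes were thus high on every GA array, with means of 0.85 and 0.69 ± 0.22 (adjusted p = 1.17e-07). The ABA mean of probe 5142 (0.12 ± 0.23, adjusted p = 0.0101) came from arrays on both sides of 0, and its call was lost without ABA array 24 (adjusted p = 0.0565) and with no dye term (adjusted p = 0.435).

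PIP1-3, also known as RWC3, behaved much like PIP1-2 under GA. It stood at 0.04, −0.01, 0.33 and 0.36 on ABA arrays 24, 20, 19 and 23, and at 0.72, 0.80, 0.75 and 0.83 on GA arrays 04, 05, 07 and 08. The GA values are close together and all lie above the highest ABA value; the GA mean was 0.77 ± 0.05 (1.71-fold, adjusted p = 9.05e-07). The ABA mean was 0.18 ± 0.19 (adjusted p = 0.0123), and that call was lost when the fit had no dye term (adjusted p = 0.0769) or lacked ABA array 19 (adjusted p = 0.0705) or 23 (adjusted p = 0.0668).

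PIP1-1, or RWC1, gave different answers on its 2 probes. Probe 15406 read −0.11, −0.11, 0.12 and 0.13 on the ABA arrays and 0.33, 0.35, 0.51 and 0.63 on the GA arrays, so that GA raised it by 0.46 ± 0.14 (adjusted p = 1.72e-06) and ABA left it at 0.01 ± 0.13 (adjusted p = 0.874). On probe 16338 the order of the hormones was reversed, with 0.03, 0.08, 0.43 and 0.49 on the ABA arrays and −0.22, −0.23, 0.07 and 0.02 on the GA arrays. Its ABA mean was 0.25 ± 0.24 (adjusted p = 2.57e-04) and its GA mean −0.09 ± 0.15 (adjusted p = 0.0418). On each GA array probe 15406 exceeded probe 16338, by 0.45 to 0.61, and on each ABA array it lay below it, by 0.14 to 0.36. With no dye term the ABA call of probe 16338 was lost (adjusted p = 0.0626). Its small GA fall was lost there too, and on leaving out any array except ABA 23 (adjusted p = 0.0584 to 0.151). The probe sequences were not at hand, so which transcript each probe reports was not tested.

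Among PIP2 genes, the water channels of the plasma membrane, PIP2-4 and PIP2-5 rose most under GA. PIP2-4 was at 0.07, 0.01, 0.43 and 0.47 on ABA arrays 24, 20, 19 and 23 and at 0.71, 0.65, 0.84 and 0.88 on GA arrays 04, 05, 07 and 08. PIP2-5 was at −0.0041, −0.06, 0.30 and 0.30 on the ABA arrays, against 0.67, 0.65, 0.70 and 0.81 on the GA arrays. For both genes every GA array lay above every ABA array. Under GA the means were 0.77 ± 0.11 (1.70-fold, adjusted p = 3.95e-07) for PIP2-4 and 0.71 ± 0.07 (1.63-fold, adjusted p = 7.75e-07) for PIP2-5. Their ABA means of 0.24 ± 0.24 (adjusted p = 0.00107) and 0.13 ± 0.19 (adjusted p = 0.0266) were higher on the arrays with treated callus in Cy5, and neither passed without the dye term (adjusted p = 0.0602 and 0.190). The ABA call of PIP2-5 was also lost without ABA array 24, 19 or 23 (adjusted p = 0.0654 to 0.134).

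PIP2-4, PIP2-5 and PIP2-1 lie near each other in the RefSeq gene order of ASM3414082v1, with 0 genes between PIP2-1 and PIP2-5 and 1 between PIP2-5 and PIP2-4. PIP2-1 moved the other way. It read 0.20, 0.22, −0.04 and −0.13 on the ABA arrays and −0.02, −0.08, −0.24 and −0.39 on the GA arrays, all below 0 under GA. The GA mean was −0.18 ± 0.17 (adjusted p = 0.00161, but adjusted p = 0.0943 without the dye term), and the ABA mean of 0.06 ± 0.17 did not pass (adjusted p = 0.183). Probe 13091, listed with both PIP2-1 and PIP2-5, passed under neither hormone, at 0.07 ± 0.09 under ABA and 0.02 ± 0.08 under GA (95% interval −0.06 to 0.11). Its ABA mean did pass when each hormone was fitted on its own arrays (adjusted p = 0.0286).

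A further 3 PIP2 genes rose under GA by less. PIP2-2 gave 0.14, 0.15, −0.11 and −0.21 on the ABA arrays and 0.59, 0.41, 0.54 and 0.33 on the GA arrays, with means of −0.01 ± 0.18 (adjusted p = 0.934) under ABA and 0.47 ± 0.12 (adjusted p = 5.62e-05) under GA. PIP2-8 averaged −0.04 ± 0.14 under ABA (adjusted p = 0.577) and 0.44 ± 0.10 under GA (adjusted p = 1.01e-04), where its arrays ran from 0.31 to 0.54. PIP2-6 averaged −0.05 ± 0.07 under ABA (adjusted p = 0.331) and 0.23 ± 0.07 under GA (adjusted p = 5.23e-04). These 3 genes were thus above 0 on every GA array and did not pass under ABA.

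PIP2-7 was called higher under ABA and did not pass under GA. It stood at 0.24, 0.34, 0.25 and 0.12 on ABA arrays 24, 20, 19 and 23 and at −0.17, −0.16, 0.10 and −0.26 on GA arrays 04, 05, 07 and 08. ABA raised it by 0.24 ± 0.09 (adjusted p = 0.0104), above 0 in both dye orientations, although the call ended without ABA array 20 (adjusted p = 0.0602). Under GA the mean of −0.12 ± 0.16 did not pass (adjusted p = 0.113). Array 07 was the only GA array above 0 for this gene, but it was not flagged in the check of outlying arrays given at the end. Without it the GA mean passed (−0.21, adjusted p = 0.00136).

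In the tonoplast class, TIP2-1 had the highest GA mean of all 30 probes. On ABA arrays 24, 20, 19 and 23 it was at 0.24, 0.30, 0.38 and 0.23, and on GA arrays 04, 05, 07 and 08 at 0.88, 0.73, 0.79 and 1.12. It rose under both hormones, by 0.29 ± 0.07 under ABA (1.22-fold, adjusted p = 0.00292) and by 0.88 ± 0.17 under GA (1.84-fold, adjusted p = 1.45e-06), and 1.70 percent of all probes had a higher GA mean. TIP2-2, of the same group, rose about as far under ABA as TIP2-1 and less under GA. Its values were 0.35, 0.37, 0.23 and 0.19 on the ABA arrays and 0.25, 0.26, 0.08 and 0.02 on the GA arrays, for means of 0.29 ± 0.09 (adjusted p = 4.84e-05) and 0.15 ± 0.12 (adjusted p = 0.00145, and 0.0510 without the dye term). The ABA calls of TIP2-1 and TIP2-2 held in every alternative tried that kept the direction of the GA arrays.

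TIP3-2, of the group known from seed storage vacuoles, rose under ABA and fell under GA. It read 0.35, 0.38, 0.08 and −0.04 on the ABA arrays and −0.04, −0.08, −0.17 and −0.36 on the GA arrays. Its means were 0.19 ± 0.20 (adjusted p = 0.00484) and −0.16 ± 0.14 (adjusted p = 0.00961), and neither call held without the dye term (adjusted p = 0.110 and 0.153), nor the fall without GA array 05 (adjusted p = 0.0564) or 08 (adjusted p = 0.0519). Probe 1488, listed with TIP3-1 and another gene, was at −0.01 ± 0.01 under ABA and −0.13 ± 0.11 under GA (adjusted p = 0.0156, but 0.0541 with no dye term and 0.0689 without GA array 08), and could not be given to TIP3-1. The remaining TIP genes moved little. TIP4-1 averaged 0.06 ± 0.16 under ABA (adjusted p = 0.205) and 0.18 ± 0.13 under GA (adjusted p = 0.00160), and TIP1-1 −0.03 ± 0.09 (adjusted p = 0.584) and 0.16 ± 0.07 (adjusted p = 0.0102). The GA call of TIP4-1 was lost with no dye term (adjusted p = 0.0594), and that of TIP1-1 without GA array 04 (adjusted p = 0.0591) or 05 (adjusted p = 0.0663). TIP1-2 and TIP4-2 passed under neither hormone, with means between −0.02 and 0.04.

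Side by side, the plasma membrane and tonoplast classes stood apart under GA, while under ABA PIP minus TIP ran from −0.10 to 0.11. The median of the 13 PIP probes was 0.03, −0.01, 0.13 and 0.13 on ABA arrays 24, 20, 19 and 23, and 0.45, 0.41, 0.51 and 0.47 on GA arrays 04, 05, 07 and 08. The median of the 8 TIP probes was 0.08, 0.09, 0.07 and 0.02 on the ABA arrays, and 0.08, 0.09, 0.05 and 0.03 on the GA arrays. Medians of all probes tested lay between −0.01 and 0.0047 on the 8 arrays. PIP median minus TIP median was therefore 0.0040 ± 0.098 under ABA, with 2 arrays on either side of 0, and 0.40 ± 0.07 under GA, with every array between 0.32 and 0.47. With the probes of a gene averaged and the probes listed with 2 genes left out, this mean of array differences was −0.0022 under ABA and 0.38 under GA. A different measure averages each gene over the 4 arrays first and then takes the median over genes. By it 10 PIP genes stood at 0.11 under ABA and 0.45 under GA, against 0.06 and 0.15 for 7 TIP genes. The 2 measures need not give the same difference. No test was made of these class values, because the probes were grouped with earlier results of the same arrays known. The count of PIP probes called higher was 6 under ABA and 9 under GA, of 13; for TIPs it was 3 and 4, of 8.

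**Figure D2:**
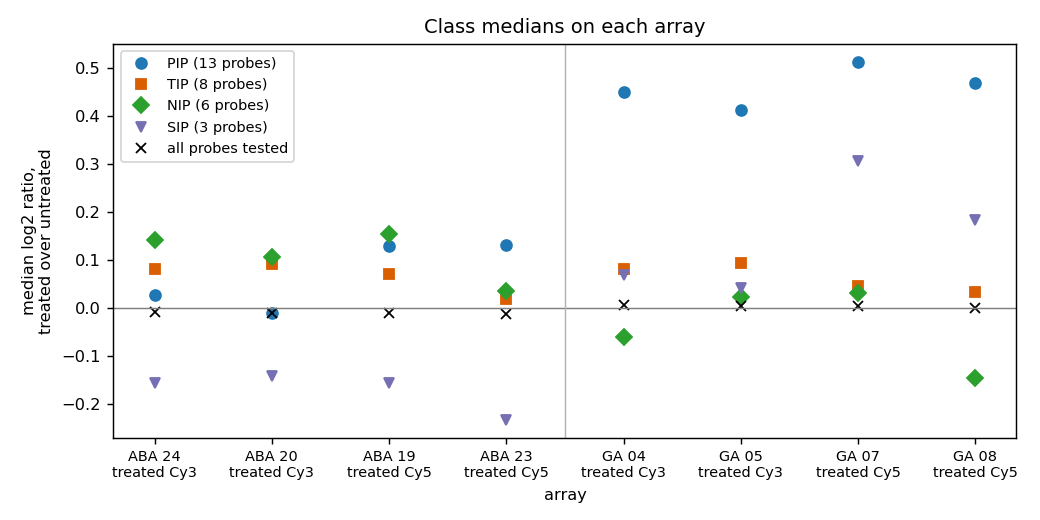
Median log2 ratio of treated over untreated callus (vertical axis) on each of the 8 arrays, by aquaporin class and for all probes tested; each symbol is 1 class on 1 array. PIP medians lie at 0.41 to 0.51 on the GA arrays and at −0.01 to 0.13 on the ABA arrays, while TIP medians lie between 0.02 and 0.09 on all 8.

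NIP means lay between −0.04 and 0.15 under ABA and between −0.10 and 0.08 under GA. NIP1-1 rose under ABA by 0.15 ± 0.06 (adjusted p = 0.00841), with 0.14, 0.07, 0.20 and 0.21 on the arrays, though not without ABA array 19 (adjusted p = 0.0511). Under GA its mean of 0.08 ± 0.06 did not pass (adjusted p = 0.0835). It did pass without GA array 07 (adjusted p = 0.0148) and with a dye term for each hormone (adjusted p = 0.0275). NIP2-1, the silicon channel Lsi1 of rice roots, stood at 0.12 ± 0.09 under ABA (adjusted p = 0.0193, but 0.177 with no dye term and 0.0772 to 0.0924 without ABA array 24, 20 or 23) and at 0.04 ± 0.13 under GA (adjusted p = 0.398). NIP2-2, the silicon channel Lsi6, has 3 probes, whose means were 0.07 to 0.12 under ABA and −0.10 to −0.06 under GA. Of these only probe 2941 passed, with 0.04, 0.04, 0.28 and 0.14 on ABA arrays 24, 20, 19 and 23. On GA arrays 04, 05, 07 and 08 it read −0.17, −0.115, −0.03 and −0.10. Its means were 0.12 ± 0.12 under ABA (adjusted p = 0.0182) and −0.10 ± 0.06 under GA (adjusted p = 0.0328), and neither call passed with no dye term (adjusted p = 0.101 and 0.140). The ABA call was also lost without ABA array 24 or 19 (adjusted p = 0.0573 and 0.112), and the GA call without ABA array 24 or GA array 04 or 08 (adjusted p = 0.0560 to 0.127). On probe 274 the GA mean passed when GA array 07 was left out (−0.15, adjusted p = 0.00905). NIP4-1 averaged −0.04 ± 0.39 under ABA, with 0.30 and 0.29 on the arrays treated in Cy3 and −0.32 and −0.42 on those treated in Cy5, and −0.02 ± 0.19 under GA, and passed under neither.

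SIPs are the class of inner membranes, and of their 3 probes 2 fell under ABA and 2 rose under GA. SIP1-1 was at −0.06, −0.06, −0.37 and −0.36 on ABA arrays 24, 20, 19 and 23 and at −0.05, −0.01, −0.09 and −0.04 on GA arrays 04, 05, 07 and 08. It fell under ABA (−0.21 ± 0.18, adjusted p = 0.00295) and did not pass under GA (−0.05 ± 0.03, adjusted p = 0.383). SIP2-1 has 2 probes. Probe 6124 gave −0.16, −0.18, −0.16 and −0.23 on the ABA arrays and 0.40, 0.47, 0.31 and 0.18 on the GA arrays, with no overlap of the hormones. The fall under ABA was −0.18 ± 0.04 (adjusted p = 0.00424), and the rise under GA was 0.34 ± 0.13 (adjusted p = 6.18e-05). Probe 14833 had the same signs, with −0.06 ± 0.12 under ABA (adjusted p = 0.258) and 0.20 ± 0.20 under GA (adjusted p = 0.00306, but 0.0635 without the dye term).

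The difference between the hormones, ABA minus GA, was tested in the same fit. It was lower under ABA for 14 probes and higher for 6, against 27.3 and 22.7 percent of all probes tested. Among PIPs 9 of 13 were lower under ABA, and for these 9 no ABA array reached the lowest GA array. That separation was found in 20.8 percent of all probes, and was not counted among the probes called lower. It uses the same values as the call, so it adds no separate support. Over all classes 12 probes had every ABA array below every GA array and 4 had every ABA array above, against 15.4 percent of all probes. The differences of the 9 ran from −0.78 ± 0.07 (SE) for PIP1-2 on probe 12504 (adjusted p = 1.44e-05) to −0.27 ± 0.05 for PIP2-6 (adjusted p = 0.00153). The PIP probes higher under ABA were PIP2-7 (0.36 ± 0.08, adjusted p = 0.00578), PIP1-1 on probe 16338 (0.35 ± 0.05, adjusted p = 2.21e-04) and PIP2-1 (0.25 ± 0.05, adjusted p = 0.00239); the last 2 did not pass without the dye term (adjusted p = 0.0574 and 0.114). TIPs were divided. TIP2-1 (−0.59 ± 0.08, adjusted p = 2.19e-04) and TIP1-1 (−0.19 ± 0.06, adjusted p = 0.0230) were lower under ABA, and TIP3-2 (0.35 ± 0.06, adjusted p = 8.41e-04) and TIP2-2 (0.13 ± 0.04, adjusted p = 0.0216) higher. The call of TIP1-1 was lost without ABA array 24 or 20 or GA array 04 or 05 (adjusted p = 0.0694 to 0.0738). That of TIP2-2 was lost with no dye term (adjusted p = 0.223), and also when ABA array 24, 20 or 19 or GA array 04 was left out (adjusted p = 0.0530 to 0.0723). NIP2-2 on probe 2941 was higher under ABA (0.23 ± 0.05, adjusted p = 0.00398), and all 3 SIP probes were lower, with SIP2-1 on probe 6124 at −0.52 ± 0.05 (adjusted p = 3.97e-05) and SIP1-1 at −0.17 ± 0.06 (adjusted p = 0.0412, but 0.172 without the dye term and 0.0524 to 0.123 without ABA array 19 or 23 or GA array 05, 07 or 08). SIP2-1 on probe 14833 was at −0.27 ± 0.06 (adjusted p = 0.00480, but 0.0834 without the dye term). Each array held 1 hormone, and nothing says that both hormones were hybridised together, so a run of arrays and the hormone cannot be told apart in this difference. With the GA arrays turned it would become 16 probes higher and 1 lower under ABA.

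**Figure D3:**
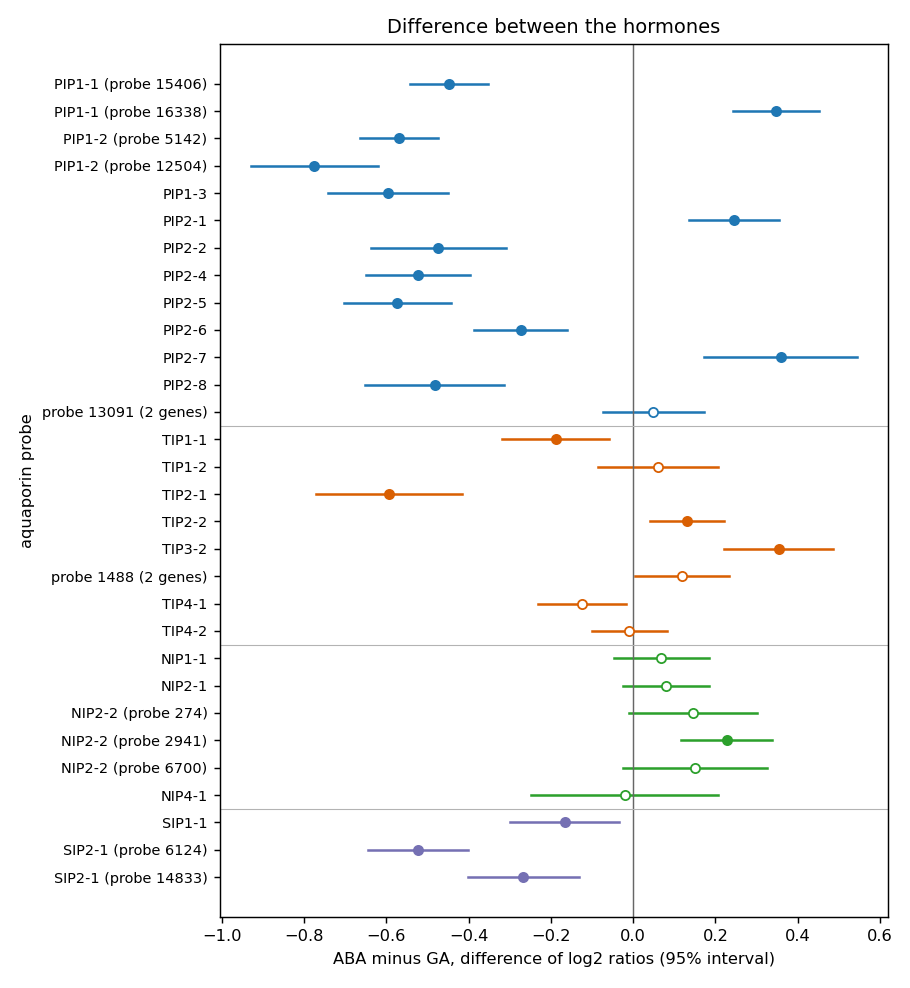
Difference of log2 ratios, ABA minus GA, with its 95% interval (horizontal axis) for each of 30 aquaporin probes; filled points passed at a limma adjusted p under 0.05. Of 13 PIP probes 9 lie left of 0, between −0.78 and −0.27, and 3 right of it.

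Dye bias set how firmly the ABA values can be read. The dye term was called for 13 of 30 aquaporin probes, against 42.6 percent of all probes, and reached 0.19 for PIP1-2 on probe 5142 and −0.23 for NIP4-1. Under ABA the means of the 2 dye orientations lay on opposite sides of 0 for 14 of the 30 probes (46.5 percent of all probes), among them 2 of the called ones, PIP1-2 on probe 5142 and PIP2-5. Under GA this held for 5 of 30 (34.6 percent of all probes), PIP1-1 on probe 16338 being the called one. Without the dye term 4 aquaporin probes were called higher under ABA and 1 of them was a PIP, against 9 PIP probes under GA, the same number as with it. Each hormone has 2 arrays in either orientation, so leaving out the term changed no mean and only moved the dye difference into the spread. A call lost there is the same mean against a wider spread. With a dye term for each hormone, 7 PIP probes were called higher under ABA. The part of dye bias in the ABA means was not tested. The 9 PIP rises under GA held their call in every alternative tried that kept the direction of the GA arrays, and turning those arrays would make them falls. Of the 6 under ABA, 0 did.

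**Figure D4:**
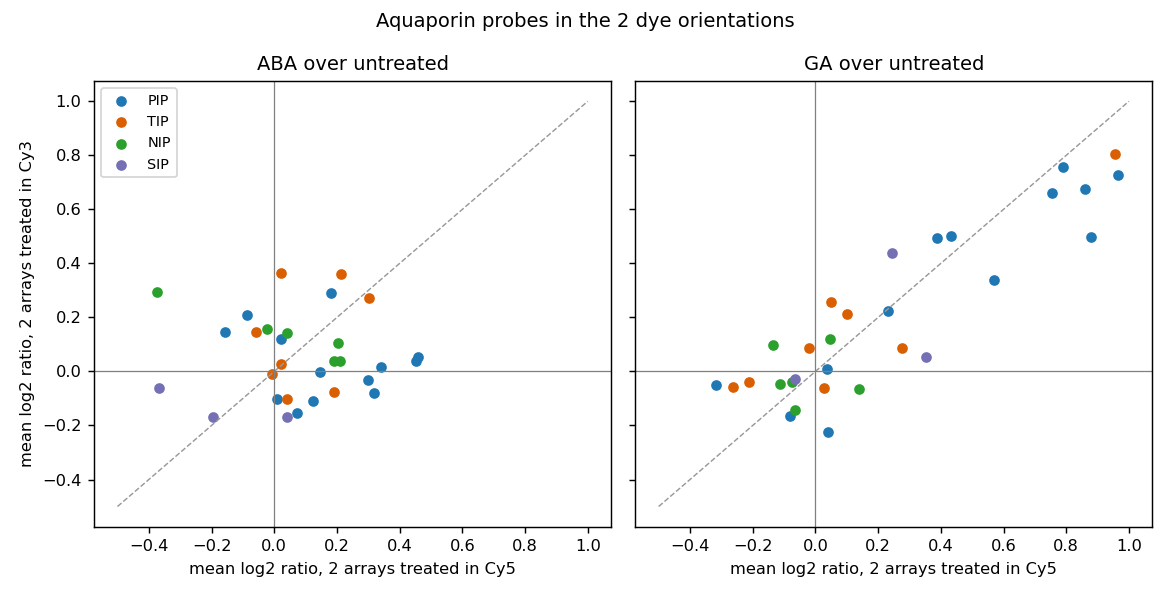
Mean log2 ratio over the 2 arrays with the treated callus in Cy5 (horizontal axis) against the mean over the 2 arrays with it in Cy3 (vertical axis) for 30 aquaporin probes, under ABA (left) and GA (right); the dashed line marks equal values. Under GA the probes that rose lie in the upper right in both orientations, whereas under ABA 14 probes lie in the quadrants of opposite sign.

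Other carriers of ions and solutes were set beside the aquaporins, as a list of potassium transporters and channels (HAK, HKT, TPK and KCO names), calcium exchangers of the vacuole (CAX) and the silicon exporter Lsi2. Of its 35 probes 5 rose and 4 fell under ABA (median 0.04), and 10 rose and 7 fell under GA (median 0.02). Over all probes tested, 18.0 percent rose and 23.7 percent fell under ABA, and 26.2 percent rose and 22.8 percent fell under GA. CAX1a, a vacuolar calcium exchanger, had the largest ABA rise of the list (0.59 ± 0.09, adjusted p = 6.27e-07), with a smaller one under GA (0.24 ± 0.08, adjusted p = 1.39e-04). HAK16 rose under ABA (0.42 ± 0.20, adjusted p = 2.81e-05) and fell under GA (−0.35 ± 0.17, adjusted p = 5.65e-05), as did HAK11 (0.26 ± 0.14, adjusted p = 0.00462, and −0.64 ± 0.11, adjusted p = 1.10e-05); both are named as potassium transporters. TPK3, named as a potassium channel, rose most under GA (0.59 ± 0.07, adjusted p = 1.30e-06) and fell under ABA (−0.22 ± 0.07, adjusted p = 0.00132). HAK17 fell under GA on probe 3745 (−0.53 ± 0.16, adjusted p = 2.82e-05) and was at −0.11 on its other probe (adjusted p = 0.372).

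Genes of green tissue were also set beside the aquaporins. Of 7 probes for RBCS1, rca, CAB1R, CAB2R and PSBW, 4 rose and 0 fell under ABA, with means from −0.01 to 0.48, and 0 rose and 3 fell under GA, with means from −0.82 to 0.15, while 3 did not pass under ABA and 4 did not under GA. The shares over all probes were 18.0 percent higher and 23.7 percent lower under ABA, and 26.2 and 22.8 percent under GA. At an unadjusted p under 0.05 in limma, 0 fell under ABA and 2 rose under GA. The probes called higher under ABA were above 0 on every ABA array, but RBCS1 on probe 14251 (0.46 ± 0.52) rose mainly in 1 dye orientation. It stood at 0.06 and 5e-04 on ABA arrays 24 and 20, and at 1.07 and 0.72 on arrays 19 and 23. Probe 12261 of RBCS1 did not pass under ABA (0.15 ± 0.33, limma adjusted p = 0.1). The part of these genes in the aquaporin results was not tested.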

How the data were processed

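Per the labels, mRNA was amplified, labelled and hybridised by the array maker's (Agilent) protocols, and the authors LOWESS-normalized the ratios before depositing them, which were read here as log10 values; for software and spot filters, nothing is given in the sources used here. These deposited log10 ratios were multiplied by 3.32 to give log2 ratios, and the sign was changed where the treated callus was in Cy3. Genes came from GEO's platform annotation and, for names, the RefSeq annotation of ASM3414082v1. Exact zeros (92 to 243 per array, 0 on aquaporin probes) counted as missing values, and at least 3 values per hormone were required; 4787 features listed with no gene were left out.

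limma 3.58.1 in R 4.3.3 was fitted with a mean per hormone and a shared dye term (5 residual and 3.93 prior degrees of freedom). The fit was tested on simulated data of 17782 probes, with 50 changed at each size and noise drawn independently for each array. There the GA comparison recovered 62 percent of changes of 0.25, 98 percent of 0.5 and of 1, and 100 percent of 2, with 6.77 percent of calls false. On the real arrays far more probes were called under GA (26.2 percent higher and 22.8 percent lower). Whether their noise is independent is not known, so the simulated shares need not hold for them. The number of arrays limits the precision; the median SE was 0.0396 for a hormone and 0.0560 for the difference.

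Array values are given for the called probes with the largest means per hormone and the largest per class. Those of PIP2-1, NIP4-1 and probes of the same genes were added after their values were seen. The members and lists were chosen with earlier results of these data known. The transport list was cut to names of carriers by symbol, since the annotation gives no product, which removed TMT and OSA15. No sequences were at hand.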

Additional observations from a re-analysis of the deposited data

Results flagged for a closer look

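Of 60 groups of 4 arrays (30 aquaporin probes under each hormone), 1 held an array far from the other 3. On probe 6700 of NIP2-2, ABA array 23 stood at −0.0699 while the other ABA arrays lay between 0.14 and 0.15. Chance alone gives such an array in about 1 of 20 groups. The other probes of the gene did not show a gap of that relative size, although array 23 was also the lowest ABA array on probe 274 (−0.10).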

How the results depend on the processing

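Without the dye term, probes called higher under ABA were 4 (12 with it), PIP probes among them 1 (6 with it), probes called lower under GA 0 in limma (5 with it, and 2 at an unadjusted p under 0.05 without it), TIP probes called higher under GA 2 (4 with it), and probes higher under ABA than under GA 3 (6 with it). At an adjusted p under 0.01, 6 probes were called higher under ABA, 2 of them PIPs, and 2 lower under GA. With the GA arrays turned, 16 probes were higher and 1 lower under ABA than under GA. Leaving out each array in turn gave 8 to 12 probes higher (4 to 6 PIPs, 3 TIPs) and 2 lower under ABA, 14 to 16 higher (9 PIPs, 3 to 4 TIPs) and 1 to 6 lower under GA, and 5 to 8 higher and 12 to 14 lower under ABA than under GA; the count of 1 lower under GA came without GA array 08, and a count of 3 without ABA array 24, GA array 04 or GA array 05. PIP minus TIP medians ran from −0.032 to 0.039 under ABA and from 0.37 to 0.42 under GA. Centring, scale and quantile normalization, robust moderation, separate dye terms or fits per hormone, zeros kept, complete probes only and all features kept these counts within 1.5 times. No called probe changed sign in these, apart from turning the GA arrays. The causes were not tested. The table gives no signal over background, so probes near background cannot be told from others.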
